A study of Drosophila melanogaster with 31 samples.

Results

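roo (FBgn0000155), rooA (FBgn0063394), diver (FBgn0043969), 3S18 (FBgn0005384) and Max-element (FBgn0063919) are BEL-type transposons of Drosophila. They were taken by name from the deposited expression tables, in which these 5 are among 126 transposon consensus sequences, and all 5 were detected in each of the 21 RNA libraries. Their consensus sequences are 9092, 7621, 6112, 6126 and 8556 bases long, in the same order. A consensus stands for a whole family of dispersed copies, so each value is a family total and has no single chromosomal position.

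BEL-type elements are long terminal repeat retrotransposons: they are transcribed from one repeat to the other, and the RNA serves both as messenger for the Gag and Pol proteins and as template for reverse transcription and insertion of a new copy. roo is known as an abundant family among the retrotransposons of Drosophila melanogaster, and rooA is a relative of it. In the fly ovary such elements are held down by Piwi and its partner small RNAs, the piRNAs, which direct heterochromatin to transposon copies. Modulo, encoded by mod, is a nucleolar protein that binds nucleic acid, and the study asked whether it is needed for this silencing.

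Poly(A) RNA was sequenced from 7 groups of 3 libraries. Ovaries came from mod07570/L8 females, which are transheterozygous for a hypomorphic P-element insertion allele and an amorphic deletion allele, and from the heterozygotes modL8/+ and mod07570/+. Heads came from mod07570/L8 and mod07570/+ flies. The remaining heads were labelled mod07570/L8 with or without ectopic eye outgrowths (EEO and no EEO). The study describes these as progeny of mod07570/L8 females mated to males of KrIf-1, a dominant eye mutation. Its text gives the progeny with EEO 1 copy of mod, so the label and the study's description differ. By that description these heads are not transheterozygous, and mod07570/L8 is the genotype of their mothers. The heterozygotes, which carry a mod mutation themselves, served as the controls, and mod07570/L8 flies carry 1 copy of each mod allele.

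Library totals were 12820086 to 22695680 estimated fragments, and the 5 elements had 101 to 7269 fragments per library. Levels are given as cpm, the element's estimated fragments divided by the library total and multiplied by 1000000, and as FPKM where elements are compared with each other per length. mod itself was at 10.3 to 12.3 cpm in mod07570/L8 ovaries, against 449 to 462 cpm in modL8/+ and 324 to 342 cpm in mod07570/+ ovaries. In heads, mod was at 18.2 to 20.0 cpm in mod07570/L8, against 58.7 to 122 cpm in mod07570/+, and at 37.1 to 52.8 cpm in the EEO and no EEO libraries together. The defining markers of ovary and head stood where the tissue labels place them, with departures in grk and in 1 library. The germline marker grk had group means of 26.6 to 32.8 cpm in ovaries and 18.7 to 30.8 cpm in heads. mod07570/+ head replicate 2 had a summed germline marker level of 260 cpm, against 16.1 and 25.0 cpm in the other replicates of its group.

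For rooA, diver, 3S18 and Max-element no fragment in any library was shared with another sequence. For roo, 5.52% to 20.8% of the fragments also aligned to transcripts of alpha-Man-Ia (9 transcripts) or Scgdelta (4 transcripts), and the quantifier divided them. alpha-Man-Ia was at 50.0 to 166 cpm and Scgdelta at 0.447 to 43.7 cpm over the 21 libraries. All member calls below were also obtained from fragments that map to 1 sequence alone.

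**Figure D1:**
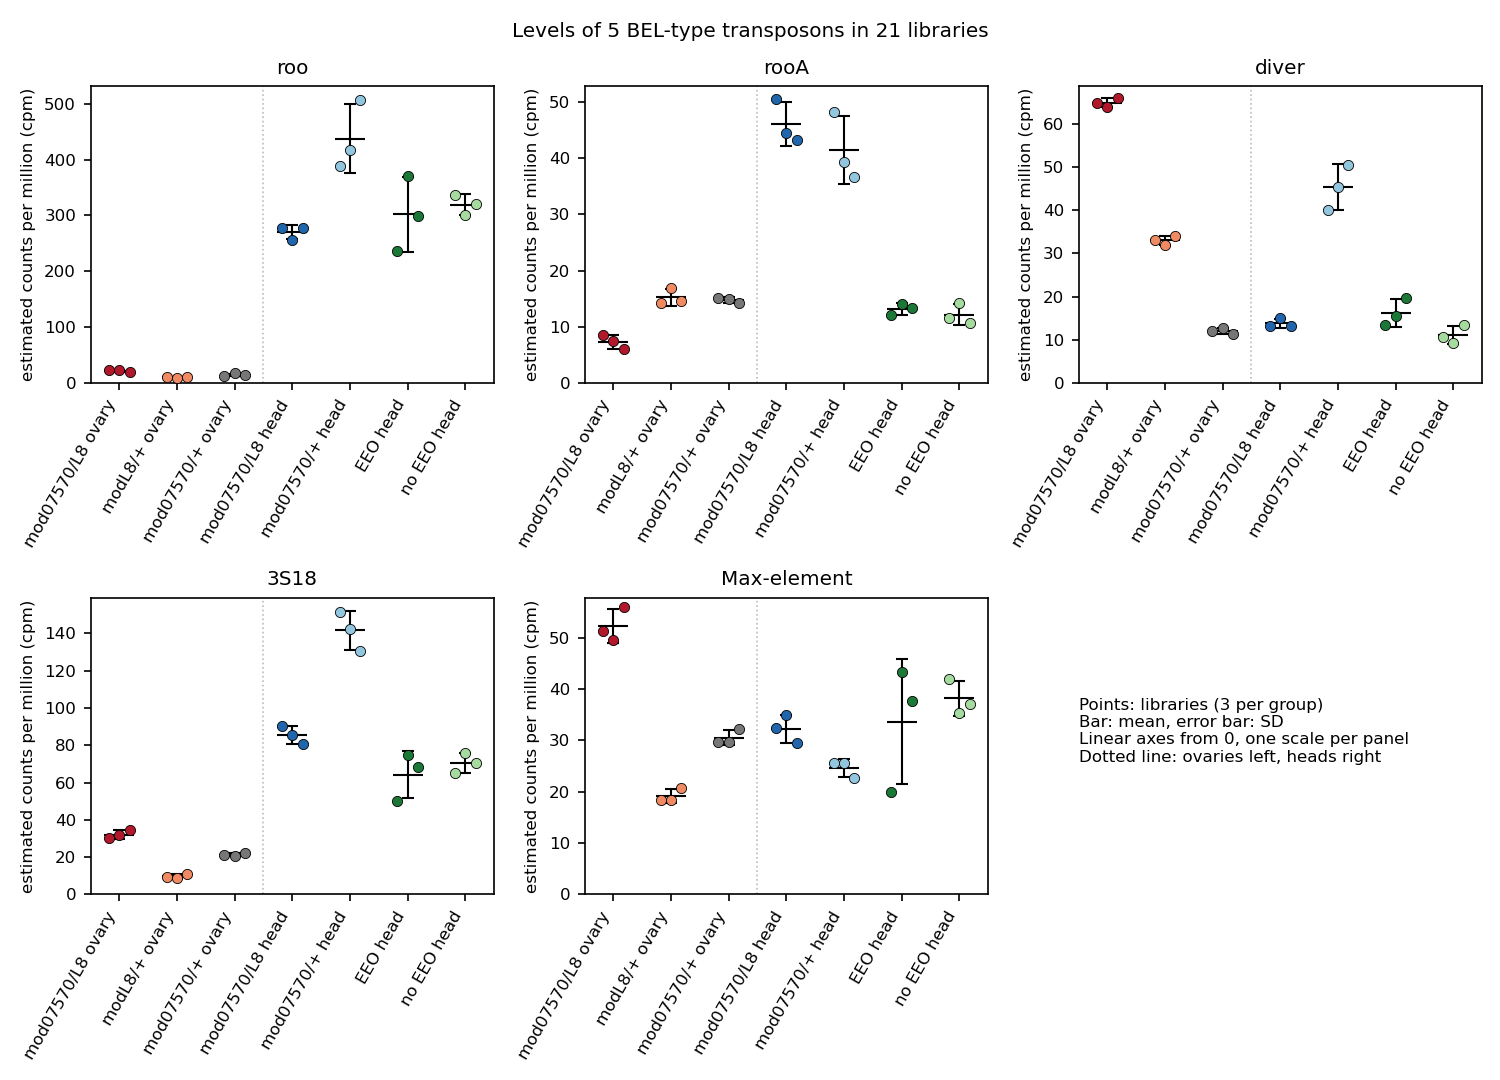
Level of each element in every library, in cpm on linear axes that start at 0; points are libraries, horizontal bars the mean and error bars the SD of 3 libraries, with ovaries left and heads right of the dotted line. diver is highest in mod07570/L8 ovaries, at 63.9 to 66.0 cpm, while roo and 3S18 are highest in mod07570/+ heads.

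The first comparison asks whether loss of Mod raises these transposon RNAs in the ovary. In mod07570/L8 ovaries diver, Max-element, 3S18 and roo were higher than in mod07570/+ ovaries, and rooA was lower. diver stood out among the 5 by the size of its difference, 5.41-fold in mean cpm, and the other 3 that rose reached at most 1.71-fold.

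diver had 64.8, 63.9 and 66.0 cpm in mod07570/L8 ovaries, against 12.1, 12.7 and 11.2 cpm in mod07570/+ ovaries. The groups lay far apart, with an SD of 1.03 cpm in mod07570/L8 and 0.72 cpm in mod07570/+ ovaries. The log2 fold change was 2.53 (SE 0.064, edgeR quasi-likelihood test, Benjamini-Hochberg adjusted p = 3.77e-22).

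Max-element had 51.3, 49.5 and 55.9 cpm in mod07570/L8 ovaries, against 29.7, 29.7 and 32.2 cpm in mod07570/+ ovaries. 3S18 had 30.1, 31.7 and 34.6 cpm in mod07570/L8 ovaries, against 21.3, 20.5 and 22.0 cpm in mod07570/+ ovaries. In both elements every mutant library was above every heterozygous one. The edgeR log2 fold changes were 0.86 for Max-element (SE 0.060, adjusted p = 8.77e-13) and 0.68 for 3S18 (SE 0.072, adjusted p = 3.21e-09).

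roo had 23.1, 22.4 and 20.1 cpm in mod07570/L8 ovaries, against 12.5, 16.9 and 14.2 cpm in mod07570/+ ovaries. Its groups did not overlap either, and the log2 fold change was 0.67 (SE 0.095, edgeR adjusted p = 5.47e-07). rooA moved the other way. It had 8.45, 7.41 and 5.98 cpm in mod07570/L8 ovaries, against 15.2, 15.0 and 14.2 cpm in mod07570/+ ovaries, a log2 fold change of -0.93 (SE 0.118, edgeR adjusted p = 9.39e-08).

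All 5 elements passed the threshold (adjusted p under 0.05) in this comparison, as did 77.6% of all 8295 features tested (38.5% higher and 39.1% lower), so passing it does not set the elements apart. How many of all features had groups without overlap was not counted, here or in the comparisons below. Separate groups therefore do not set the elements apart either. Their direction can be read against that of the other transposons: 62 of the 74 transposons tested were higher in mod07570/L8 ovaries and 4 were lower, rooA being one of the 4. The median log2 fold change of the 5 elements was 0.68, against 1.69 over the tested transposons and 0.00 over all features. The 5 together took 3.21% ± 0.09 of transposon fragments in mod07570/L8 ovaries and 17.9% ± 0.26 in mod07570/+ ovaries (SD, n = 3 each), although their summed level was 178 ± 3.83 cpm in the mutant and 93.1 ± 2.07 cpm in the heterozygote.

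The second comparison sets the same mutant libraries against the other heterozygote, modL8/+, so it is not independent of the first. The same 4 elements were higher in the mutant and rooA was again lower, but the sizes were ordered differently. 3S18 had the largest difference of the 5, and diver the smallest of those that rose.

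Against the mutant values given above, modL8/+ ovaries had 9.11, 8.93 and 11.2 cpm of 3S18 and 18.3, 18.5 and 20.8 cpm of Max-element. The mutant was 3.29-fold higher in 3S18 (log2 1.79, SE 0.092, edgeR adjusted p = 2.08e-13) and 2.72-fold higher in Max-element (log2 1.51, SE 0.067, edgeR adjusted p = 1.45e-14). Neither element had overlapping groups.

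modL8/+ ovaries had 11.4, 9.22 and 9.84 cpm of roo, and the mutant was 2.15-fold higher (log2 1.18, SE 0.096, edgeR adjusted p = 4.82e-10). They had 33.0, 32.0 and 34.2 cpm of diver, and the mutant was 1.96-fold higher (log2 1.04, SE 0.049, edgeR adjusted p = 4.30e-14). For rooA they had 14.3, 17.0 and 14.5 cpm, which is above all 3 mutant libraries (log2 -0.998, SE 0.122, edgeR adjusted p = 2.51e-07). The 5 of 5 called stand beside 72.7% of 8192 features, with 36.4% higher and 36.3% lower, and the median of the 5 was 1.18, against 1.51 over the 77 transposons tested.

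The heterozygotes, whose libraries both enter the comparisons above, differed from each other in 4 of the 5 elements. Between modL8/+ and mod07570/+ ovaries, diver was 2.76-fold higher in modL8/+ (log2 1.48, SE 0.080, edgeR adjusted p = 3.61e-14), so its 3 ovary groups form 3 separate levels of 64.9 ± 1.03 cpm in mod07570/L8, 33.1 ± 1.08 cpm in modL8/+ and 12.0 ± 0.72 cpm in mod07570/+ (SD, n = 3 each). 3S18, Max-element and roo were lower in modL8/+ ovaries than in mod07570/+ ovaries, with edgeR log2 fold changes of -1.10 (adjusted p = 1.83e-09), -0.65 (adjusted p = 1.21e-07) and -0.51 (adjusted p = 0.0012). For rooA the difference did not pass (log2 0.07, 95% interval -0.13 to 0.27, edgeR adjusted p = 0.589). The count of 4 called members stands beside 42.3% of 8052 features, with 21.7% higher and 20.5% lower. In diver the heterozygotes differed by a log2 of 1.48, beside 1.04 between the mutant and modL8/+, and for roo, 3S18 and Max-element the smaller mutant difference was the one against mod07570/+.

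**Figure D2:**
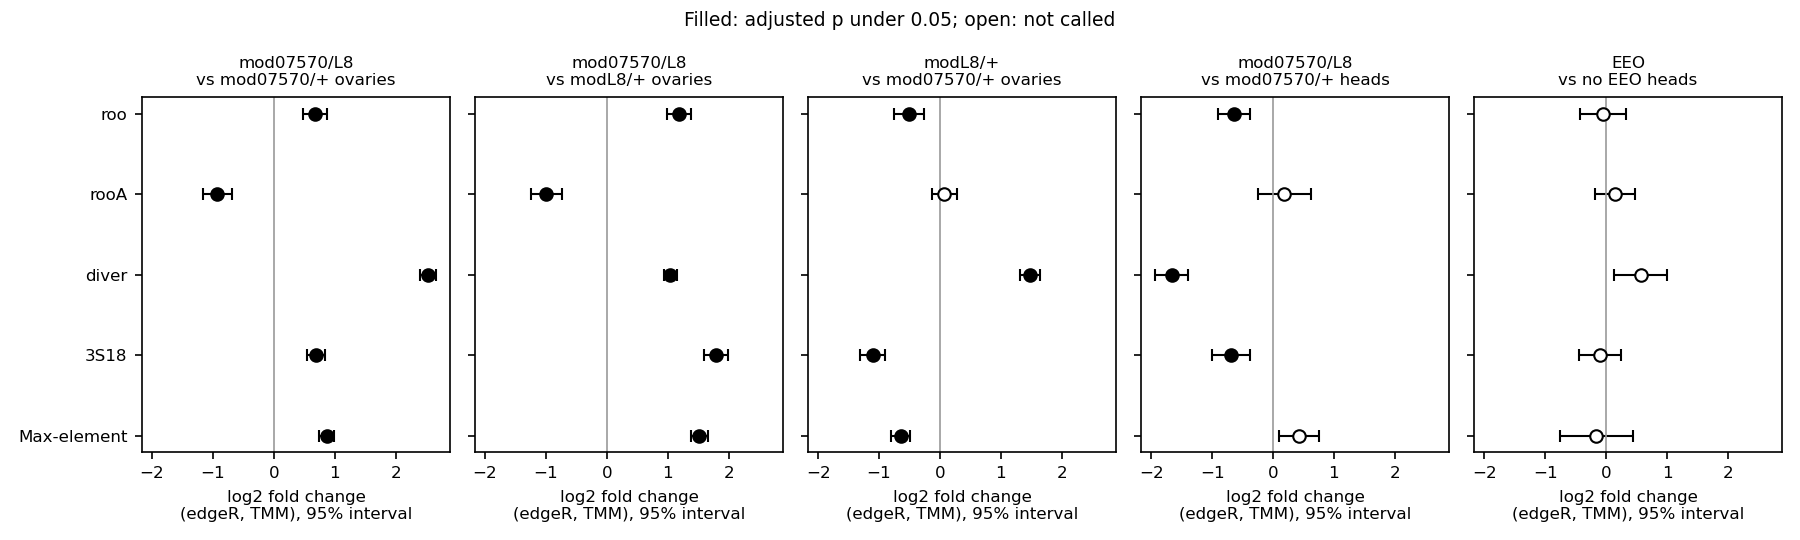
Log2 fold change of each element in 5 comparisons, the group named first over the group named after it, with the 95% interval of the edgeR fit; filled points passed an adjusted p under 0.05 and open points did not. The sign of rooA is opposite to that of the other 4 elements in both mutant ovary comparisons, and in heads diver, roo and 3S18 lie below 0.

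Other ovarian RNAs moved with these comparisons. The summed level of 10 markers of late follicle cells, which make the chorion and vitelline membrane of the eggshell, was 22655 to 23276 cpm in mod07570/L8 ovaries, against 8057 to 8300 cpm in modL8/+ and 3610 to 3631 cpm in mod07570/+ ovaries, and all 10 were higher by the edgeR test in each of the 3 ovary comparisons. The 5 germline markers measured did not move together. Against mod07570/+ ovaries, vas (log2 0.64), bgcn (1.78) and grk (0.40) were higher and bam (-0.93) was lower in mod07570/L8 ovaries by the edgeR test, while osk, the most abundant of them, did not pass (-0.02). Against modL8/+ ovaries the same 3 were higher, and bam (-0.92) and osk (-0.10) were lower. Their summed level, most of it osk, was 1950 to 1997 cpm in mod07570/L8 ovaries, against 2159 to 2193 cpm in modL8/+ and 2080 to 2107 cpm in mod07570/+ ovaries. The order of the 3 groups by follicle markers is that of diver, and it is not that of the other 4 elements. The part of the ovary's cell make-up in the differences of the elements was not tested. In bulk RNA, fewer cells of a type and less RNA per cell cannot be told apart.

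Of 5 piRNA pathway genes, all expressed in the ovary, 2 were higher and 1 lower in mod07570/L8 than in mod07570/+ ovaries, beside the 77.6% of all features called there. These were fs(1)Yb, a somatic piRNA factor, by a log2 of 1.04 and piwi by 0.07, while rhi, which marks germline piRNA clusters, was lower (-0.46). Against modL8/+ ovaries, beside 72.7% of features, fs(1)Yb (1.13) and aub (0.11) were higher. There piwi (0.05, edgeR adjusted p = 0.116) and rhi (-0.03, edgeR adjusted p = 0.657) did not pass. rhi also differed between the heterozygotes, lower in modL8/+ than in mod07570/+ ovaries (log2 -0.43, edgeR adjusted p = 3.48e-06).

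In heads the picture was different. Mutant heads held less diver, roo and 3S18 RNA than mod07570/+ heads did, while rooA and Max-element did not pass the test. Passing was far less common here than in the ovary: 3 of the 5 elements were called, against 3.53% of 9999 features (1.94% lower) and 31 of the 93 transposons tested (17 higher, 14 lower). The median log2 fold change of the 5 was -0.64, against 0.06 over the tested transposons. The summed level of 7 markers of head neurons and eye was 34310 to 37600 cpm in mod07570/L8 heads, against 27884 to 29474 cpm in mod07570/+ heads. Most of this sum came from the eye genes ninaE, Arr1 and Arr2. The neuronal markers elav (log2 0.04), nSyb (0.06) and Syt1 (0.20) did not pass (edgeR adjusted p = 0.422 or larger). By the edgeR test 1 of the 7 was higher, Rh3, a rhodopsin of ultraviolet-sensitive photoreceptors (log2 0.62, adjusted p = 0.0471), none was lower, and their median log2 fold change was 0.37. Their part in the differences of the elements was not tested.

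diver had 13.3, 15.1 and 13.2 cpm in mod07570/L8 heads, against 40.2, 45.5 and 50.6 cpm in mod07570/+ heads. The groups were well apart, the reverse of the ovary order, with a log2 fold change of -1.66 (SE 0.116, edgeR adjusted p = 7.64e-04). Without mod07570/+ head replicate 2, the library with germline markers, the value was -1.73 (edgeR adjusted p = 5.68e-04).

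roo had 278, 257 and 278 cpm in mod07570/L8 heads, against 388, 417 and 507 cpm in mod07570/+ heads. 3S18 had 90.4, 85.7 and 80.9 cpm in mod07570/L8 heads, against 152, 142 and 131 cpm in mod07570/+ heads. Neither element overlapped between the groups, and the share of all features without overlap was not counted. The edgeR log2 fold changes were -0.64 for roo (SE 0.113, adjusted p = 0.0300) and -0.69 for 3S18 (SE 0.136, adjusted p = 0.0427). Both calls were lost when any 1 mod07570/L8 head library or mod07570/+ head replicate 3 was left out, with adjusted p of 0.0620 to 0.184 for roo and 0.0574 to 0.186 for 3S18. The log2 fold changes in these fits were -0.66 to -0.56 for roo and -0.78 to -0.65 for 3S18. Both calls held without mod07570/+ head replicate 1 or replicate 2.

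Max-element had 32.4, 34.9 and 29.5 cpm in mod07570/L8 heads, against 25.6, 25.6 and 22.7 cpm in mod07570/+ heads. The groups did not overlap, but the difference did not pass across all features (log2 0.43, 95% interval 0.10 to 0.76, edgeR adjusted p = 0.186). rooA had 50.6, 44.4 and 43.3 cpm in mod07570/L8 heads, against 48.2, 39.3 and 36.7 cpm in mod07570/+ heads, with overlapping groups (log2 0.18, 95% interval -0.25 to 0.62, edgeR adjusted p = 0.652).

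Whether the genotype difference itself differed between ovary and head was tested as an interaction of tissue and genotype over the 12 libraries of mod07570/L8 and mod07570/+. The ovary difference was above the head difference for diver by a log2 of 4.21 (SE 0.124, edgeR adjusted p = 1.88e-08), for 3S18 by 1.39 (SE 0.158, adjusted p = 1.06e-04) and for roo by 1.34 (SE 0.172, adjusted p = 2.40e-04). For rooA it was below it, at -1.10 (SE 0.242, adjusted p = 0.0071), and for Max-element it did not pass (0.45, 95% interval 0.12 to 0.79, adjusted p = 0.0517). The 4 members called stand beside 24.5% of 10609 features (18.1% above and 6.46% below 0) and 65 of the 99 transposons tested (59 above and 6 below 0). The median over these 99 transposons was 1.48, so 3S18 and roo lay slightly under it, and rooA was 1 of the 6 below 0. By size, diver ranked 5 among the 99.

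**Figure D3:**
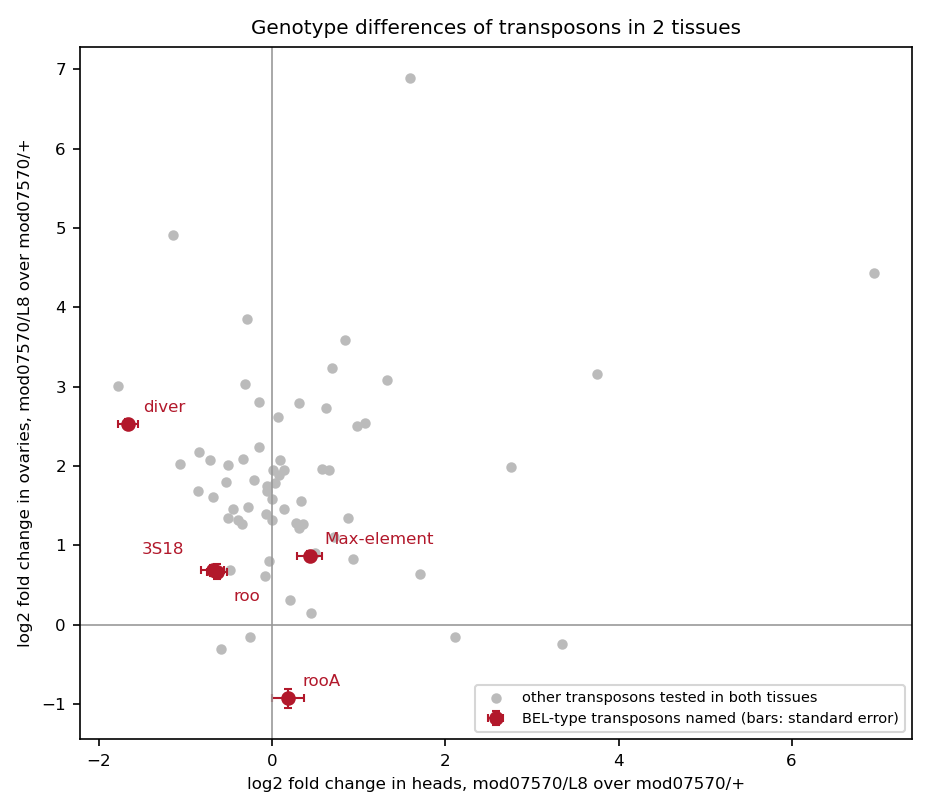
Log2 fold change of mod07570/L8 over mod07570/+ in heads (horizontal) and in ovaries (vertical) for each of the 68 transposons tested in both tissues; the 5 named elements are in red with standard errors. diver, roo and 3S18 lie in the upper left field, higher in mutant ovaries and lower in mutant heads.

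Of the 68 transposons tested in both tissues, 10 were called higher in mutant ovaries and lower in mutant heads, and diver, roo and 3S18 were 3 of these. A further 11 were higher in both tissues, none of them among the 5 elements. No transposon was called lower in ovaries and higher in heads. How many of all features were called higher in mutant ovaries and lower in mutant heads was not counted. The 3 members therefore cannot be set against a share of all features. Each direction alone held for 38.5% of 8295 features in ovaries (higher) and 1.94% of 9999 features in heads (lower). The head calls of roo and 3S18 were lost in some fits with a library left out, as given above.

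Between the tissues, roo, 3S18 and rooA were lower in ovaries than in heads of both genotypes. In mod07570/L8, roo averaged 21.9 ± 1.56 cpm in ovaries and 271 ± 12.1 cpm in heads. In mod07570/+ it averaged 14.5 ± 2.24 cpm in ovaries and 437 ± 62.1 cpm in heads (SD, n = 3 each). The ovary to head log2 fold changes were -4.12 in mod07570/L8 (SE 0.060, edgeR adjusted p = 1.74e-13) and -5.53 in mod07570/+ (SE 0.185, edgeR adjusted p = 1.15e-06).

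For 3S18 the ovary to head log2 fold changes were -1.91 in mod07570/L8 and -3.37 in mod07570/+, and for rooA they were -3.15 in mod07570/L8 and -2.13 in mod07570/+ (edgeR adjusted p = 7.04e-05 or smaller in the 4 tests). diver changed its order with genotype. Its level was 4.69-fold higher in ovaries than in heads of mod07570/L8 (log2 1.73, SE 0.064, edgeR adjusted p = 3.04e-10), but in mod07570/+ it was higher in heads (ovary to head log2 -2.54, SE 0.113, edgeR adjusted p = 2.81e-06).

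Between tissues the scaling matters: when libraries were scaled to total counts and not by TMM, the trimmed mean of M-values, the median of all features moved by 0.49 on the log2 scale in mod07570/L8 and by 0.61 in mod07570/+. roo, rooA, diver and 3S18 kept their direction and their call under both. Max-element had no stable direction: its ovary to head log2 fold change in mod07570/L8 was 0.20 with TMM and -0.06 with DESeq2, and in mod07570/+ it was -0.32 with TMM and 0.31 with total counts. Lower levels in the ovary were the rule among transposons, 86 of 95 tested in mod07570/L8 and 86 of 92 in mod07570/+, so roo, 3S18 and rooA did not differ from the rest in direction. All 5 elements were called in each genotype, beside 94.3% of 10206 features in mod07570/L8 (47.7% higher and 46.6% lower in ovaries) and 89.4% of 10302 features in mod07570/+ (47.2% lower).

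Compared per length, the elements ranked differently in the tissues. In mod07570/L8 ovaries diver had the highest FPKM of the 5 at 11.7 ± 0.22, and rooA the lowest at 0.971 ± 0.161 (SD, n = 3). In mod07570/+ ovaries the 5 lay within a factor of 2.03, with roo lowest at 2.03 ± 0.27 FPKM and Max-element highest at 4.12 ± 0.17 FPKM. In all 4 head groups roo was the highest of the 5, at 38.5 ± 0.82 FPKM in mod07570/L8 heads and 62.8 ± 6.69 FPKM in mod07570/+ heads, and 3S18 came next, at 14.6 ± 0.75 FPKM in mod07570/L8 heads and 24.7 ± 2.66 FPKM in mod07570/+ heads.

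**Figure D4:**
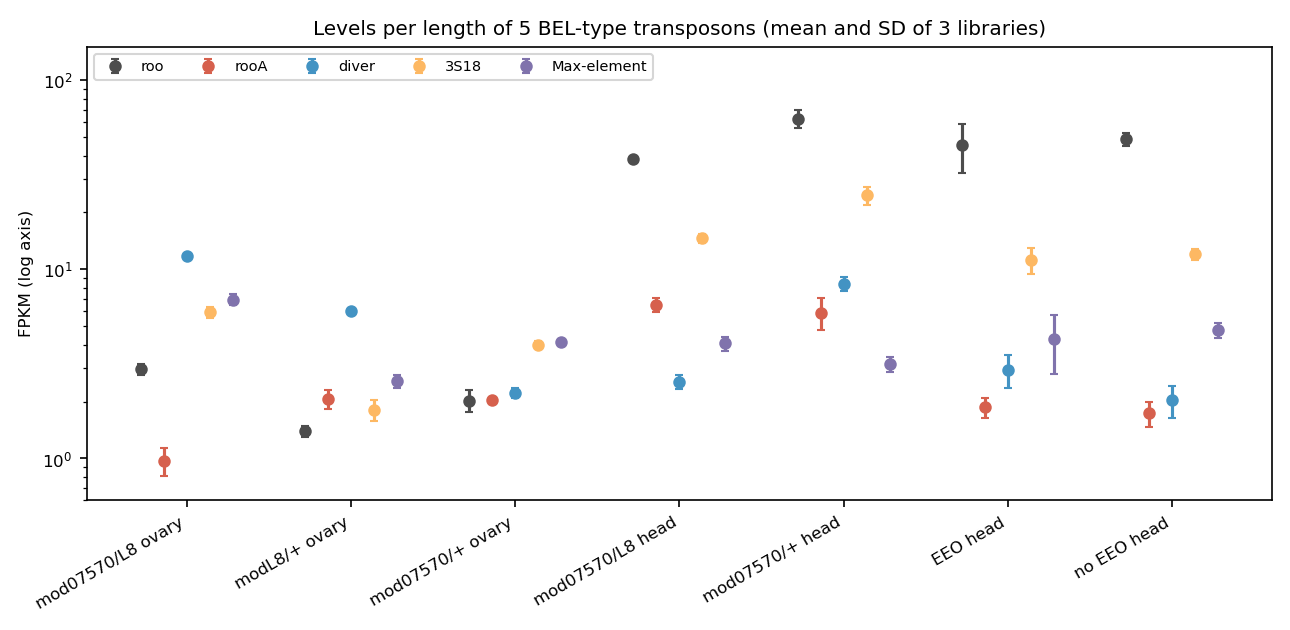
FPKM of the 5 elements in each group on a log axis, points and error bars being the mean and SD of 3 libraries. roo has group means between 1.39 FPKM (modL8/+ ovaries) and 62.8 FPKM (mod07570/+ heads), and in mod07570/L8 ovaries diver is highest and rooA lowest.

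EEO and no EEO heads address whether the outgrowths go with a change in transposon RNA. None of the 5 elements passed the edgeR test between them, against 0.523% of 10137 features. At an unadjusted edgeR p under 0.05 the count was 1, beside 954 of all features, and DESeq2 called 0, beside 254 features. That 1 was diver, with 13.4, 15.5 and 19.7 cpm in EEO heads, against 10.6, 9.30 and 13.4 cpm in no EEO heads. The highest no EEO library lay just below the lowest EEO library, and the log2 difference was 0.57 (95% interval 0.14 to 1.00, edgeR adjusted p = 0.368).

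roo had 236, 371 and 298 cpm in EEO heads, against 337, 300 and 320 cpm in no EEO heads. 3S18 had 50.2, 74.5 and 68.3 cpm in EEO heads, against 65.0, 75.7 and 70.4 cpm in no EEO heads. Max-element had 20.0, 43.2 and 37.7 cpm in EEO heads, against 42.0, 35.4 and 37.1 cpm in no EEO heads. In all 3, EEO head replicate 1 was the lowest of the 6 libraries and the groups overlapped.

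The 95% intervals of the log2 difference were -0.43 to 0.32 for roo, -0.45 to 0.24 for 3S18 and -0.76 to 0.45 for Max-element. For rooA, with 12.1, 14.1 and 13.3 cpm in EEO heads and 11.5, 14.2 and 10.7 cpm in no EEO heads, the interval was -0.18 to 0.47.

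Beside the mod07570/L8 and mod07570/+ heads, these 6 libraries did not overlap in range in rooA and in 3S18. How many of all features separate in this way was not counted, so it does not set these elements apart. rooA was at 10.7 to 14.2 cpm in the EEO and no EEO heads, against 36.7 to 50.6 cpm in the other 6 head libraries. 3S18 was at 50.2 to 75.7 cpm, against 80.9 to 152 cpm in the other head libraries. roo overlapped, at 236 to 371 cpm, against 257 to 507 cpm, and so did diver, at 9.30 to 19.7 cpm, against 13.2 to 50.6 cpm, and Max-element. The 2 sets also differed in markers of sex. The summed level of the male RNAs roX1 and roX2 was 699 to 1177 cpm in the EEO and no EEO heads, against 2.97 to 4.55 cpm in the other heads, while the yolk proteins summed to 7.30 to 42.4 cpm, against 73682 to 158361 cpm. Cross, sex and mod genotype differ together between the 2 sets of heads and cannot be told apart, so no test was made.

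Ordered by mean cpm over the 7 groups, roo and 3S18 ran from modL8/+ ovaries up to mod07570/+ heads, a span of 43.0-fold for roo and 14.5-fold for 3S18. The neighbours that overlapped in range were mod07570/L8, EEO and no EEO heads for roo, and EEO and no EEO heads for 3S18. rooA ran from mod07570/L8 ovaries to mod07570/L8 heads, a span of 6.33-fold, and overlapped between EEO and no EEO heads, between the heterozygous ovaries and between mod07570/L8 and mod07570/+ heads. diver ran from no EEO heads to mod07570/L8 ovaries, a span of 5.86-fold. It overlapped between no EEO heads and mod07570/+ ovaries and between mod07570/L8 and EEO heads, and its other neighbours were separate. Max-element ran from modL8/+ ovaries to mod07570/L8 ovaries, the narrowest span of the 5 at 2.72-fold. For Max-element mod07570/+ ovaries, mod07570/L8 heads, EEO heads and no EEO heads overlapped in turn.

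Likeness between elements was described by Pearson's r of log2(cpm + 0.5) over the 21 libraries, which share tissue, genotype and depth. roo and 3S18 were the most alike pair of the 5 (r = 0.93), while diver was close to none of the other 4 (r between -0.27 and 0.05). Among the 102 other transposons compared, hopper (r = 0.99), Quasimodo (0.99) and Burdock (0.99) were nearest to roo, and mdg3 (0.98), TART-B (0.98) and Ivk (0.96) to 3S18. For rooA the nearest were I-element (0.80), Tc3 (0.75) and mdg1 (0.66), for diver gypsy9 (0.65), Tirant (0.62) and TART-A (0.41), and for Max-element G5A (0.68), R1A1-element (0.66) and gypsy9 (0.63).

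Of 5 further BEL-type names looked for, diver2 (FBgn0063439) and aurora-element (FBgn0010103) were listed, both at low levels. aurora-element averaged 2.22 ± 0.13 cpm in mod07570/L8 ovaries, against 0.876 ± 0.365 cpm in modL8/+ and 1.34 ± 0.17 cpm in mod07570/+ ovaries (SD, n = 3 each). It was higher in the mutant than in either heterozygote, with log2 1.43 over modL8/+ (edgeR adjusted p = 2.08e-04) and 0.82 over mod07570/+ (edgeR adjusted p = 0.0054).

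diver2 averaged 1.35 ± 0.22 cpm in mod07570/L8 ovaries, against 0.889 ± 0.359 cpm in modL8/+ and 0.483 ± 0.105 cpm in mod07570/+ ovaries (SD, n = 3 each). It was higher than in mod07570/+ (log2 1.56, edgeR adjusted p = 4.17e-04), and its difference from modL8/+ did not pass (log2 0.66, 95% interval -0.04 to 1.36, edgeR adjusted p = 0.0847).

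In heads aurora-element had 8.52, 9.27 and 8.29 cpm in mod07570/L8, against 5.10, 4.02 and 4.84 cpm in mod07570/+. The groups did not overlap and the mutant mean was 1.87-fold higher, the direction opposite to that of diver, roo and 3S18. The difference did not pass (log2 0.94, 95% interval 0.44 to 1.43, edgeR adjusted p = 0.0672) but did under 5 of 13 alternatives, with DESeq2, with unique counts, with all head groups in one fit and without mod07570/+ head replicate 1 or replicate 2. The adjusted p over the 13 ran between 0.0144 and 0.281. diver2 did not pass in heads (log2 0.34, 95% interval -0.17 to 0.84, edgeR adjusted p = 0.474).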

How the data were processed

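RNA from 21 libraries (7 groups of 3) was analysed. Read pairs were aligned by the authors with Bowtie 2 against RefSeq transcripts together with transposon consensus sequences, and quantified by eXpress. Versions are not given in the sources used here. In the deposited estimated counts, ambiguous fragments were divided by eXpress. Deposited unique counts hold fragments of a single sequence and sum to 24.9% to 28.1% of the estimated total. FPKM was computed by the authors' eXpress run per effective length. Groups follow the sample labels. Whether replicates were separate flies is not in the labels (the study's methods call them biological replicates), so p-values measure the spread between these libraries. The common biological coefficient of variation was 0.024 to 0.026 in the pairwise ovary fits and 0.19 to 0.20 in those of heads.

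Estimated counts were summed to genes (34035 of 34437 transcripts matched a RefSeq gene name, leaving 16884 features with the transposons, and the rest held at most 0.321% of a library) and rounded. Features that reached 1 cpm in 3 or more libraries of a fit were tested with edgeR 4.0.16 (R 4.3.3, TMM, quasi-likelihood F test), and p-values were adjusted by Benjamini-Hochberg over all of them. An alternative test used DESeq2 1.42.0. Both were tested on simulated data with known changes. Apart from these changes every group had the same mean, and all features of a comparison shared 1 coefficient of variation. Of 200 such changes, edgeR recovered 200 for mod07570/L8 against mod07570/+ ovaries and 168 for the same comparison of heads. It recovered 183 between EEO and no EEO heads and 148 for the interaction. In the same order, it also called 15, 8, 10 and 10 unchanged features. The simulated interaction held no tissue difference and 1 spread for both tissues, so it does not show how the test performs on these ovaries and heads. Other alternatives were unique counts, scaling to total counts, TMM without transposons, no filter, wider fits, a replicate block and each library left out. The elements named were the 5 given, 5 further BEL-type names, and the 3 transposons with the highest r per element. The elements, lists and tests were chosen with earlier results of these data known. Peak lists were not used. Figures were drawn with matplotlib 3.10.9.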

Additional observations from a re-analysis of the deposited data

Results flagged for a closer look

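In 5 elements the mutant effect differed between ovaries and heads by the test of the difference itself (edgeR interaction, mod07570/L8 over mod07570/+ in ovaries minus the same in heads, log2): diver by 4.21, 3S18 by 1.39, roo by 1.34, diver2 by 1.24 (adjusted p = 0.0160) and rooA by -1.10. These calls stand beside 24.5% of 10609 features and 65 of the 99 transposons tested, so a call does not set these elements apart from other transposons. diver2 was 1 of 2 further BEL-type elements tested. The value for diver was between 4.13 and 4.27 under all 19 alternatives. For diver2, with no more than 27 fragments in any ovary library, the call was lost without mod07570/+ ovary replicate 3 (1.06, adjusted p = 0.0539). Groups of 3 libraries are too small for a formal test of single outlying libraries. mod07570/+ head replicate 2 stood out by its germline markers, and each library was left out in turn.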

How the results depend on the processing

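All member calls in the 3 ovary comparisons held under each of 13 alternatives. In heads, diver was called under all 13, and roo and 3S18 under 9. With libraries left out in turn, 1 to 3 members were called in mod07570/L8 against mod07570/+ heads, and 66 to 464 of all features. The count of all features ranged from 20 to 234 between EEO and no EEO heads (234 without EEO head replicate 1) and from 2101 to 4067 for the interaction (4067 without mod07570/+ head replicate 2).

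From unique counts, which hold 24.9% to 28.1% of the estimated total, 4048 features were called in mod07570/L8 against mod07570/+ ovaries, 3549 against modL8/+, 1396 between the heterozygotes, 33 between EEO and no EEO heads and 1224 for the interaction. DESeq2 called 648 features in mod07570/L8 against mod07570/+ heads and 254 between EEO and no EEO heads.

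Max-element between tissues turned direction, to -0.064 with DESeq2 in mod07570/L8, where leaving out a library gave -0.24 to 0.30, and to 0.31 with total counts in mod07570/+. The cause was not tested. Other changes of sign came from single libraries left out in differences that had not passed: rooA between the heterozygotes (-0.013 to 0.12), roo (-0.23 to 0.078), 3S18 (-0.22 to 0.028), Max-element (-0.38 to 0.10), aurora-element (-0.18 to 0.10) and diver2 (-0.11 to 0.30) between EEO and no EEO heads, and aurora-element in the interaction (-0.26 to 0.032).

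Libraries with the same replicate number did not all deviate together, and the numbers were not taken as pairs. Their correlations were -0.064 to 0.018 in the 3 ovary comparisons. In heads they were larger, 0.053 to 0.187 for mod07570/L8 against mod07570/+ and 0.0008 to 0.243 between EEO and no EEO. Some pairing of the head libraries is therefore possible. With a replicate block, 5, 5 and 4 members were called in the ovary comparisons, 3 in mod07570/L8 against mod07570/+ heads, 0 between EEO and no EEO heads, and 4 for the interaction. The block gave 4 called members between tissues in mod07570/+, where Max-element was lost (adjusted p = 0.106), and 5 in mod07570/L8. For all features it called 6316 in mod07570/L8 against mod07570/+ ovaries and 294 in the same comparison of heads.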
